A study of Apis mellifera with 2 samples.

Results

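The antioxidant enzyme genes described here are Cat, Sod1, Trxr-1, Tpx-4 and Gtpx1 of the honey bee, Apis mellifera. They were taken by their RefSeq symbols, through the protein identifiers of their 10 coding sequences, and are 5 of 9935 genes measured over 23471 coding sequences. RNA came from hemocytes, the blood cells of the open body cavity, of A. mellifera carnica, in 2 groups of 1 library each. Adult hemocytes were those of bees under 1 day old, which emerged from closed brood frames at 34 °C and were collected once in 24 h. Larval hemocytes were those of fifth-instar worker larvae, 8 days old, bled on removal from the hive. Neither group carried a mutation or received a treatment that the labels record, and each preparation started from 320 µL of hemolymph; how many insects were pooled is not stated in those labels.

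Reactive oxygen species arise in respiration and, in insect hemocytes, in the melanization reactions of immunity. Superoxide dismutases turn superoxide into hydrogen peroxide, and catalase breaks hydrogen peroxide down to water and oxygen. Many peroxiredoxins, also called thioredoxin peroxidases, reduce hydrogen peroxide and organic peroxides with electrons that thioredoxin reductase passes on from NADPH through thioredoxin. In Drosophila melanogaster, which has no glutathione reductase, thioredoxin reductase also keeps glutathione reduced.

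Depth was similar, with 16880784 estimated counts for adult and 17657463 for larval hemocytes. Levels are given as CPM, that is counts per 1000000 of the library size after TMM scaling, or as TPM. The TPM are divided by coding length and are not TMM-scaled. Since each stage has 1 library, no difference has a replicate check and every difference compares these 2 libraries. Intervals are exact 95% intervals of the counting error alone, and reads copied by PCR are not independent molecules. Of the 9 hemocyte markers listed for the check, 2 matched a symbol. PPO, the prophenoloxidase of hemocytes, stood at 5902 TPM in adult and 8011 TPM in larval hemocytes, while Dscam, an immunoglobulin receptor, was low, at 3.06 TPM in adult and 2.64 TPM in larval hemocytes. Because these are bulk samples, fewer cells of a type and less RNA per cell cannot be told apart.

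The 5 genes did not differ between the libraries in 1 direction. Tpx-4 and Gtpx1, both of which encode peroxidases, were higher in the adult library, by 3.47-fold and 2.13-fold. Cat and Sod1 were higher in the larval library, by 3.83-fold and 3.09-fold, and Trxr-1 was 1.58-fold higher there. Summed over the 5 genes the TPM were similar, at 2383 TPM in adult and 2117 TPM in larval hemocytes, while the gene that supplied most of it differed. The side of such a sum depends on the scale: on TMM-scaled CPM, as used for the folds, it was higher in the larval library.

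**Figure D1:**
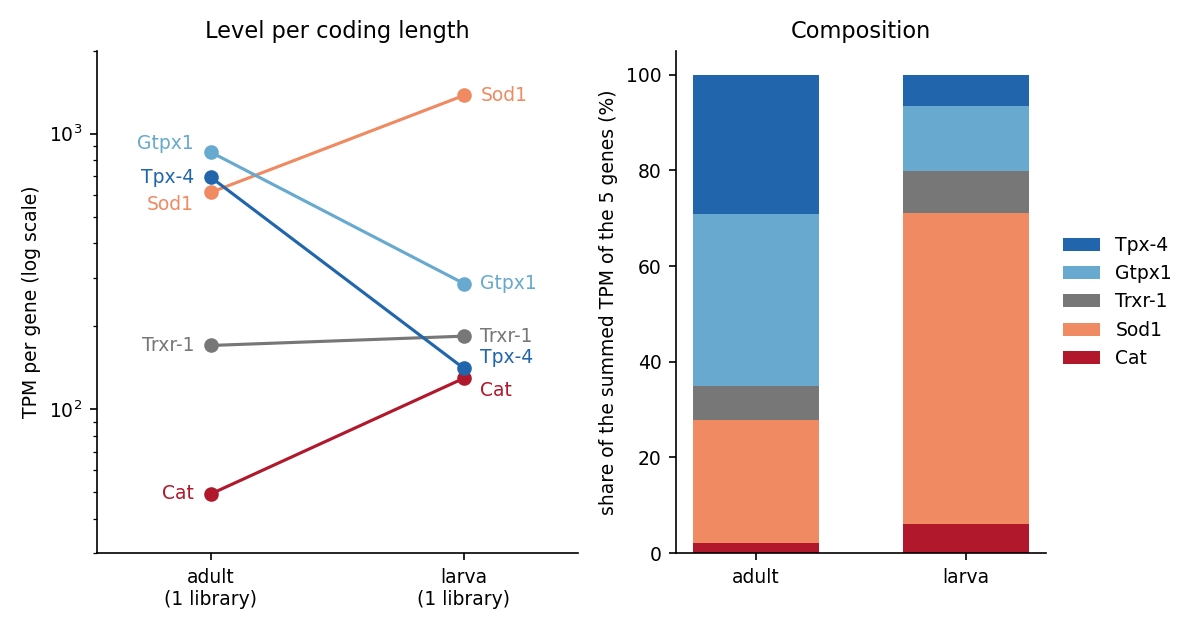
Left, TPM of each gene (log scale) in the adult and the larval library, 1 library each, with lines joining the values of a gene; right, the share of each gene in the summed TPM of the 5 genes, in percent. Gtpx1, at 857 TPM, led in the adult library and Sod1, at 1377 TPM, in the larval library, where Sod1 made up 65.0% of the sum.

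Sod1, which encodes a superoxide dismutase, the enzyme at the entry of the pathway, had 3017 estimated counts in the adult library and 7634 in the larval library. Its scaled level was 158 CPM (153 to 164) in adult and 489 CPM (478 to 500) in larval hemocytes, a log2 fold of adult over larva of -1.63 (-1.69 to -1.57). Its single coding sequence has 459 bases, the shortest of the members. TPM divides by an effective length, which depends on the fragment length of a library and was 198 bases in adult and 182 bases in larval hemocytes for this sequence. On that scale, which is not TMM-scaled, Sod1 stood at 612 TPM in adult and 1377 TPM in larval hemocytes, 2.25-fold higher in larval hemocytes. With plain totals, without division by length, its log2 fold was -1.27. By TPM it ranked 277 in adult and 144 in larval hemocytes among the 9935 genes.

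Cat, the catalase gene, had 1805 estimated counts in adult and 5657 in larval hemocytes. That came to 94.6 CPM (90.3 to 99.1) in adult and 362 CPM (353 to 372) in larval hemocytes. The log2 fold of -1.94 (-2.01 to -1.86) was the lowest among the 5 genes, and 5.61% of the 8798 genes compared had a lower one. Per length, Cat was the least abundant member in both libraries, at 49.2 TPM in adult and 129 TPM in larval hemocytes. Its rank by TPM was 2971 in adult and 1077 in larval hemocytes.

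Cat and Sod1 act in succession, and their relation to each other differed little between the libraries. Sod1 had 12.4 times the TPM of Cat in adult and 10.6 times in larval hemocytes. The ratio of their folds, which does not depend on library scaling, was 1.24 (1.16 to 1.33), so the larval excess of Cat was the wider beyond counting error.

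Tpx-4, a thioredoxin peroxidase gene, had 6891 estimated counts in adult and 1628 in larval hemocytes, on a single coding sequence of 663 bases. It stood at 361 CPM (353 to 370) in adult and 104 CPM (99.2 to 109) in larval hemocytes. The log2 fold of 1.79 (1.72 to 1.87) was the highest among the 5 genes, and 9.002% of all genes compared had a higher one. Per length the values were 694 TPM in adult and 141 TPM in larval hemocytes, ranks 252 and 1004.

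Gtpx1 encodes a homolog of glutathione peroxidase, and the corresponding enzyme of Drosophila takes its electrons from thioredoxin. It had 6649 estimated counts in adult and 2556 in larval hemocytes, at 349 CPM (340 to 357) in adult and 164 CPM (157 to 170) in larval hemocytes. The log2 fold was 1.09 (1.02 to 1.16). At 857 TPM in the adult library it was the most abundant of the 5 genes there, while at 286 TPM in the larval library it came second to Sod1.

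Trxr-1, thioredoxin reductase, supplies the reducing power that peroxidases of the thioredoxin system use. It had 5281 estimated counts in adult and 6844 in larval hemocytes, at 277 CPM (269 to 284) in adult and 438 CPM (428 to 448) in larval hemocytes. Its log2 fold of -0.66 (-0.71 to -0.61) was the closest to 0 among the members. By TPM, which is not TMM-scaled, the gap was narrower, at 170 TPM in adult and 184 TPM in larval hemocytes, a log2 ratio of -0.11. Scaling counts by plain totals, without division by length, gave -0.31.

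The log2 folds of all genes depend on how the libraries are scaled, and the median over the 8798 genes was 0.02 with TMM, 0.37 after scaling by plain totals and 0.55 by the authors' TPM. Relative to that median the members hardly moved. Tpx-4 lay 1.78 above it with TMM and 1.75 above it with TPM, and Gtpx1 lay 1.07 and 1.03 above it on these scales. Cat stood at -1.95 from the median on both scales, Sod1 at -1.64 with TMM and -1.72 with TPM, and Trxr-1 at -0.68 and -0.66. The side of each member was the same under TMM, plain totals, DESeq2 size factors and TPM.

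**Figure D2:**
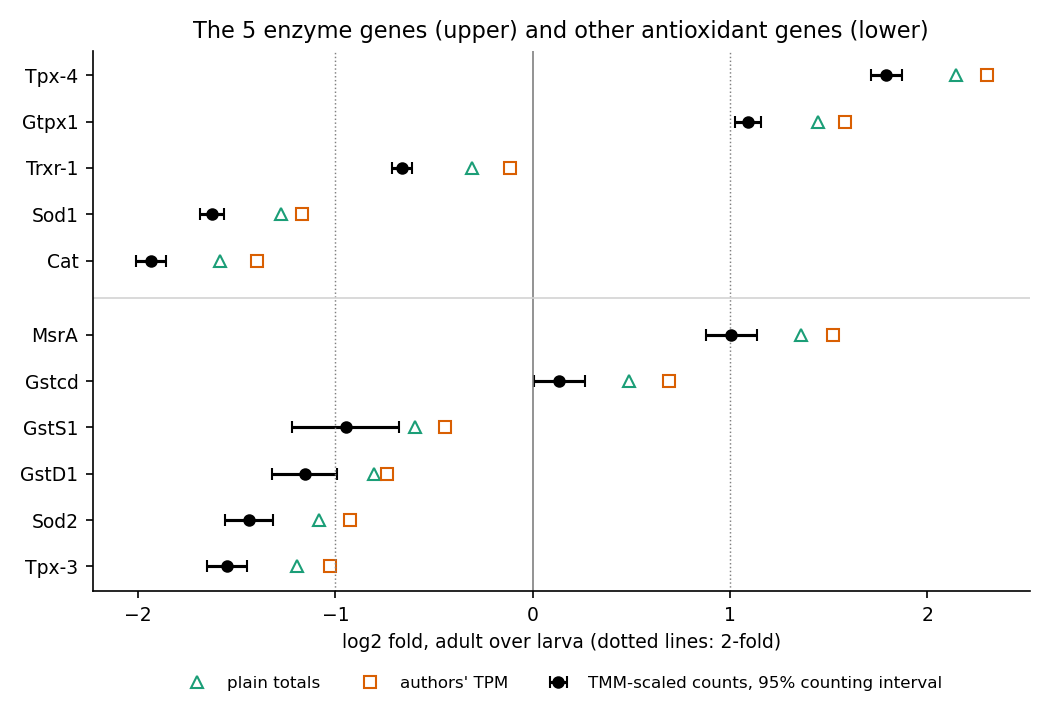
Log2 fold of adult over larva for the 5 enzyme genes (upper) and 6 other antioxidant genes (lower); filled points are TMM-scaled counts with exact 95% counting intervals, triangles plain totals and squares the authors' TPM. Tpx-4 (1.79) and Gtpx1 (1.09) lie to the right of 0 and Trxr-1, Sod1 and Cat to the left on all 3 scales.

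A size rule was used as the call: a fold of at least 2, the nearer interval bound also past 2-fold, and a level of 10 CPM or more where the gene was higher. All 5 members passed the filter of 10 counts over both libraries. Tpx-4 and Gtpx1 passed the rule on the adult side, as did 9.97% of the genes compared, and Cat and Sod1 passed it on the larval side, as did 10.7%. These background shares depend on the scaling: with TMM, 877 genes passed as higher in adults and 940 as higher in larvae, against 1421 and 575 under plain totals and 1894 and 472 under TPM, while the same 4 members passed. With TMM, both shares were larger among genes as abundant as the 5 members, as given below. Gtpx1 lies near the threshold, with a lower bound of 2.04-fold. At a 4-fold rule with TMM none of the 5 passed, against 3.14% of genes called higher in adults and 2.73% called higher in larvae. That result depends on the scaling too: Tpx-4 lay above 4-fold with plain totals (log2 fold 2.15) and with TPM (2.30). On those 2 scales 413 and 560 of the 8798 genes passed the 4-fold rule on the adult side. The median log2 fold of the 5 genes was -0.66, against 0.02 over all genes compared, and because the members lie on both sides the median is simply the value of Trxr-1.

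All 5 genes were abundant, in the eighth of genes with the highest mean CPM, and genes of that eighth had a median log2 fold of -0.44. Cat, Sod1 and Trxr-1 lay below that value, and Tpx-4 and Gtpx1 above it. Of the 1100 genes in this eighth, 328 passed the 2-fold rule as higher in larvae and 140 as higher in adults. Both calls were thus more common there than among all genes compared, and the larval call, which Cat and Sod1 received, was the more common of the 2. The members differ in coding length, but the length eighths that hold them had medians between -0.14 and 0.04.

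**Figure D3:**
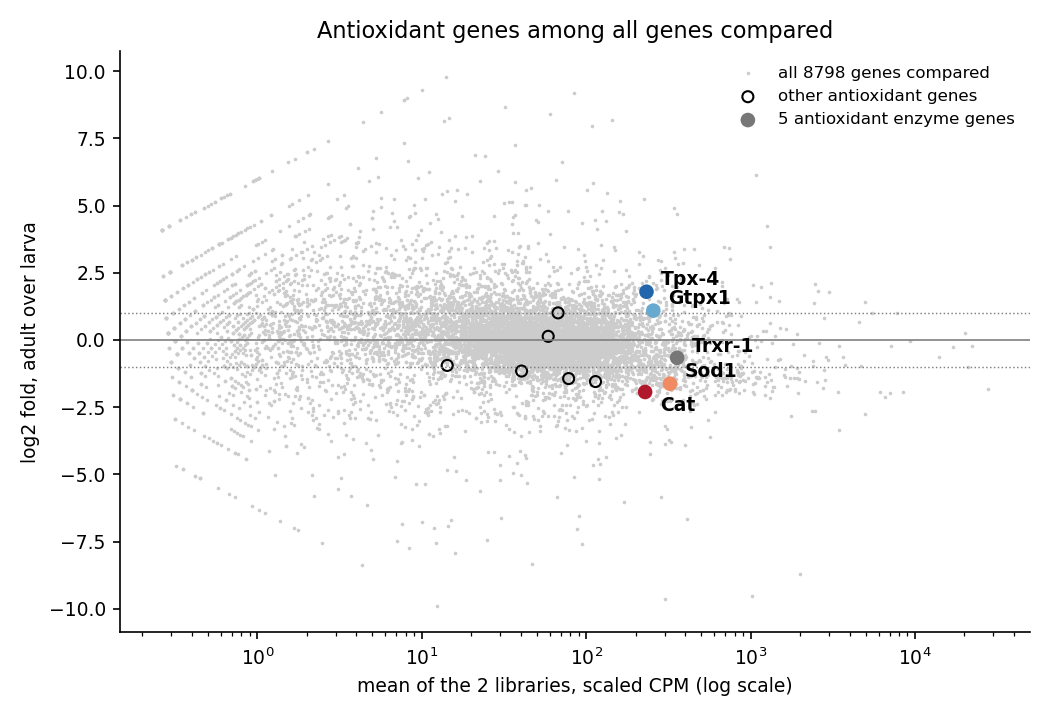
Log2 fold of adult over larva against the mean of both libraries in scaled CPM (log scale) for 8798 genes (grey), with the 5 enzyme genes in colour and 6 other antioxidant genes as open circles; dotted lines mark 2-fold. The 5 genes sit at similar mean levels, between 228 CPM for Cat and 357 CPM for Trxr-1, and spread from -1.94 to 1.79.

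Comparing members with each other inside a library removes the scaling. Of the 10 pairs, all had a ratio of folds whose interval did not reach 1. The folds of the 2 genes thus differed by more than counting error in each pair. Counting error is small at such levels. Of the 1100 genes in the eighth that holds the members, 381 were higher in adults beyond counting error and 682 in larvae. The share of all gene pairs that would pass was not computed, so 10 of 10 does not set the members apart. The widest pair was Tpx-4 against Cat. Tpx-4 had 14.1 times the TPM of Cat in adult and 1.09 times in larval hemocytes. The ratio of their folds was 13.3 (12.3 to 14.3). Against Sod1, Tpx-4 stood at 1.13 times in adult and 0.102 times in larval hemocytes, with a ratio of folds of 10.7 (9.995 to 11.5). Gtpx1 against Cat gave 8.15 (7.60 to 8.75) and Gtpx1 against Sod1 6.58 (6.18 to 7.01). Tpx-4 and Gtpx1, which share a side, were closer, with a ratio of folds of 1.63 (1.51 to 1.75).

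Ratios of Tpx-4 and Gtpx1 to Trxr-1 differed as well. Whether the bee enzymes of Tpx-4 and Gtpx1 take electrons from thioredoxin was not tested. Tpx-4 had 4.08 times the TPM of Trxr-1 in adult and 0.764 times in larval hemocytes. The same ratio for Gtpx1 was 5.03 in adult and 1.55 in larval hemocytes. The ratios of folds were 5.49 (5.14 to 5.86) for Tpx-4 and 3.37 (3.18 to 3.57) for Gtpx1.

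The share of each gene in the summed TPM of the 5 shows the same contrast. Sod1 made up 25.7% in adult and 65.0% in larval hemocytes. Gtpx1 made up 35.95% in adult and 13.5% in larval hemocytes, and Tpx-4 29.1% and 6.64%. Trxr-1 held 7.15% in adult and 8.70% in larval hemocytes, and Cat 2.07% and 6.12%. The 3 members that encode peroxide-removing enzymes, Tpx-4, Gtpx1 and Cat, summed to 1600 TPM in adult and 556 TPM in larval hemocytes. That is 2.61 times the level of Sod1 in adult and 0.404 times in larval hemocytes. Cat went the other way from Tpx-4 and Gtpx1 in this sum. The ratios cover members only and leave out the peroxiredoxin gene Tpx-3 (95.8 TPM in adult, 195 TPM in larval hemocytes) and Sod2 (82.4 and 157 TPM).

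Cat has 2 coding sequences, of 1542 and 1794 bases, and both were lower in the adult library. The longer one carried 79.7% (77.7 to 81.5) of the Cat counts in adult and 74.1% (73.0 to 75.3) in larval hemocytes. The shorter one had 367 counts in adult and 1464 in larval hemocytes, a log2 fold of -2.28 (-2.45 to -2.12), against -1.83 (-1.92 to -1.74) for the longer one. The odds of the longer over the shorter sequence were 1.37 times as high in the adult library (1.20 to 1.56). Per length the longer sequence stood at 37.7 TPM in adult and 91.2 TPM in larval hemocytes, and the shorter one at 11.5 and 38.2 TPM.

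Trxr-1 has 3 coding sequences, and its least used one went the other way from the gene. The sequence of 1614 bases had 139 counts in adult and 43 in larval hemocytes, a log2 fold of 1.39 (0.90 to 1.93), and 4.13 TPM in the adult against 1.05 TPM in the larval library. Its share of the gene was 2.63% (2.22 to 3.10) in adult and 0.628% (0.455 to 0.845) in larval hemocytes, with odds 4.28 times as high in the adult library (3.01 to 6.18). The main sequence, of 1485 bases, carried 78.2% (77.0 to 79.3) in adult and 80.8% (79.8 to 81.7) in larval hemocytes, with a log2 fold of -0.71 (-0.77 to -0.65). The sequence of 1599 bases carried 19.2% in adult and 18.6% in larval hemocytes, and the interval of its odds ratio, 0.949 to 1.14, included 1. In Drosophila the Trxr-1 gene makes cytosolic and mitochondrial forms of the enzyme through different starts, and which bee sequence would match which form was not analysed here.

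**Figure D4:**
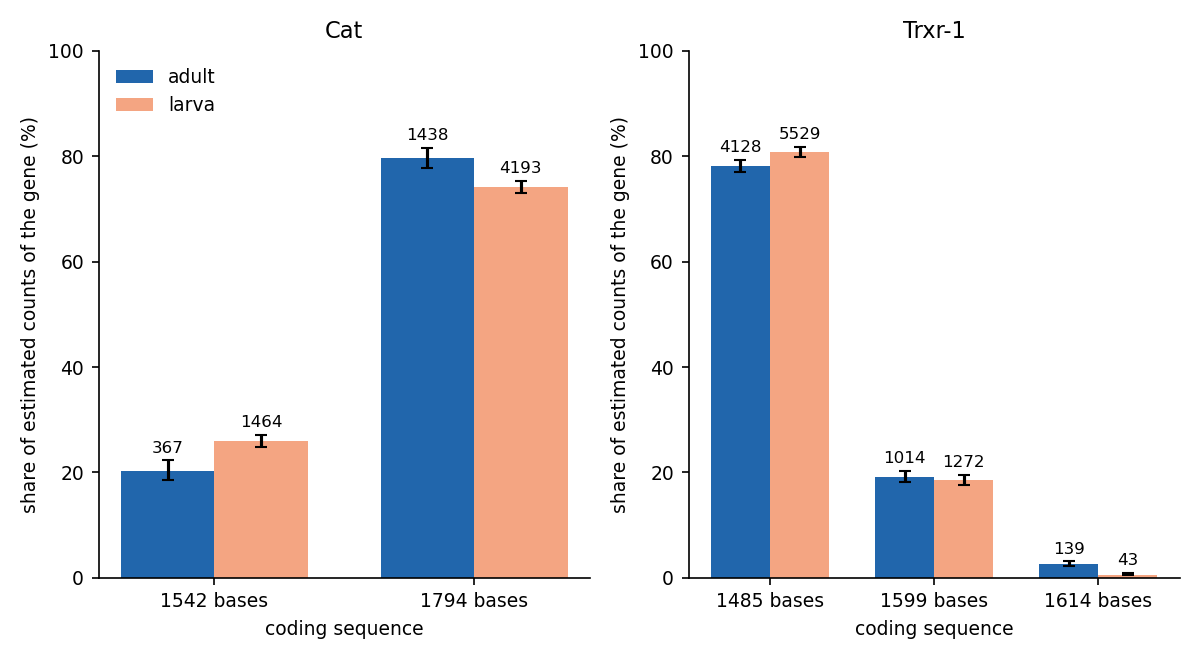
Share of the estimated counts of Cat and Trxr-1 on each of their coding sequences, in percent, in the adult and the larval library, with exact 95% binomial intervals and the rounded counts above the bars. The longer Cat sequence held 79.7% in adult and 74.1% in larval hemocytes, and the Trxr-1 sequence of 1614 bases 2.63% and 0.628%.

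Gtpx1 also has 3 coding sequences, but all of its counts were assigned to the one of 576 bases in both libraries. The other 2, each of 507 bases, are listed at 0. By the limit of 3 counts, which is one-sided and lies below the upper end of the two-sided exact interval, this allows a share of up to 0.0451% of 6649 counts in adult and 0.117% of 2556 counts in larval hemocytes. The exact intervals reach 0.0555% in adult and 0.144% in larval hemocytes. These limits hold for counting error only, since kallisto divides shared reads by estimate and whether reads could separate the sequences was not tested. The division of Cat and Trxr-1 counts among their sequences rests on the same kind of estimate. Sod1 and Tpx-4 have 1 coding sequence each.

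Other antioxidant genes were taken by symbol: superoxide dismutases, peroxiredoxins, thioredoxin and glutathione enzymes and methionine sulfoxide reductases. Of the 8798 genes compared, 315 have a symbol other than a locus number, so antioxidant genes under locus numbers are left out. This gave 7 further genes, of which 6 passed the count filter, while GstS4 had 4 counts in each library. Of the 6, none passed the 2-fold rule on the adult side where 9.97% of all genes did, and 2 passed it on the larval side, Tpx-3 and Sod2, where 10.7% did. Beyond counting error, 2 were higher in the adult library, against 41.6% of all genes, and 4 in the larval library, against 41.0%. Their median log2 fold was -1.05, against 0.02 over all genes compared and -0.22 over the 315 genes with a symbol. Genes with a symbol leaned to the larval side themselves: 59 of the 315 passed the 2-fold rule there and 33 on the adult side.

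Tpx-3, a second peroxiredoxin gene, stood on the opposite side from Tpx-4. It had 1108 counts in adult and 2653 in larval hemocytes, a log2 fold of -1.55 (-1.65 to -1.45). Tpx-4 had 7.25 times the TPM of Tpx-3 in adult and 0.720 times in larval hemocytes, with a ratio of folds of 10.1 (9.27 to 11.1). The order of the pair by TPM was thus reversed between the libraries.

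Sod2, named for the mitochondrial manganese superoxide dismutase, lay on the same side as Sod1. It had 805 counts in adult and 1785 in larval hemocytes, a log2 fold of -1.44 (-1.56 to -1.32). Sod1 had 7.43 times the TPM of Sod2 in adult and 8.79 times in larval hemocytes, with a ratio of folds of 0.876 (0.798 to 0.963).

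MsrA, which repairs oxidized methionine in proteins, had 1718 counts in adult and 700 in larval hemocytes, a log2 fold of 1.01 (0.88 to 1.14) that missed the rule by its lower bound. Of the glutathione S-transferase genes, GstD1 had a log2 fold of -1.16 (-1.32 to -0.99) and GstS1 one of -0.95 (-1.22 to -0.68). Gstcd, which is named for a glutathione S-transferase C-terminal domain, stood at 0.13 (0.01 to 0.26).

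The genes next to the members were compared to see whether a stretch of the genome moved as a whole. Cat lies next to Def1, a defensin gene, which had 126 counts in adult and 2 in larval hemocytes, on the other side from Cat, and its other neighbour, LOC413073, had a log2 fold of 0.67. Both neighbours of Sod1, LOC724264 and LOC409397, were on the larval side as Sod1 was, at -0.74 and -0.95. The folds of 4329 of the 8798 genes compared lay on that side, and neither neighbour passed the 2-fold rule. The neighbours of Tpx-4, LOC102656448 and LOC726662, were on the adult side as Tpx-4 was, at 0.36 and 0.25, far below its 1.79. On the adult side lay 4469 of the 8798 genes, and neither of these neighbours passed the 2-fold rule. The neighbours of Trxr-1 stood at 0.26 for LOC724327 (-0.01 to 0.54) and -2.40 for LOC102655811, which had 7 counts in adult and 32 in larval hemocytes.

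Gtpx1 differs in that its neighbour LOC411982, which overlaps it, also passed the 2-fold rule on the adult side, as did 9.97% of all genes. LOC411982 had 3261 counts in adult and 681 in larval hemocytes, a log2 fold of 1.97 (1.85 to 2.09). LOC409261, on the other side of Gtpx1, stood at 0.36. The sources do not say whether counting used strand, so overlapping genes may share reads, and the same holds for LOC724327 with Trxr-1 and LOC102656448 with Tpx-4. Whether the coding sequences themselves overlap was not tested.

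Among 166 genes with a symbol and at least 10 CPM in both libraries, the genes nearest to each member in log2 CPM over the 2 libraries were listed. Tpx-4 and Gtpx1 were near each other, at a distance of 0.65 log2 units, and Slc35b1, of a solute carrier family, was within 0.70 of Tpx-4 and 0.48 of Gtpx1. Cat was nearest to Reck, a membrane-anchored inhibitor of metalloproteinases (0.22), and to Su(var)3-9, a histone methyltransferase (0.44). Sod1 was nearest to Rpn1 (0.05) and Cryl1 (0.15), and Trxr-1 to the tetraspanin Tspan6 (0.18) and to STT3B, a catalytic subunit of oligosaccharyltransferase (0.23). With only 2 libraries, such nearness describes a pair of levels and no more.

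Markers of other tissues also differed between the libraries. Of 8 fat body genes listed, 7 were measured, and their summed level was 45.5 TPM in adult and 1555 TPM in larval hemocytes, with 6 of 7 past the 2-fold rule on the larval side, where Cat and Sod1 also lay (10.7% of all genes), and Vg past it on the adult side (9.97%). The 4 measured neuronal genes summed to 837 TPM in adult and 132 TPM in larval hemocytes, of which Syt1 alone made up 804 and 123 TPM. All 4 folds lay on the adult side, as did those of 4469 of the 8798 genes compared. Of the 4, 3 were higher beyond counting error (41.6% of all genes) and 2 passed the 2-fold rule (9.97%). The 2 oenocyte genes went different ways, with Cyp4g11 at 44.8 TPM in adult and 0.627 TPM in larval hemocytes and FAR1 at 2.96 TPM in adult and 3.24 TPM in larval hemocytes. Muscle genes, 6 measured, came to 87.3 TPM in adult and 84.0 TPM in larval hemocytes, most of it TpnCI. Their log2 folds with TMM ranged from -3.20 to 1.51 with a median of -0.62. The counting interval lay wholly on the larval side for 4 genes (41.0% of all genes) and wholly on the adult side for 1 (41.6%). The 13 mitochondrially encoded genes held 1.92% of counts in adult and 5.44% in larval hemocytes. No measured marker was at 0 in either library, and the part of these tissues in the values of the 5 genes was not tested.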

How the data were processed

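Polyadenylated RNA was sequenced as read pairs of 150 bases, per the labels' protocols. The authors deposited estimated counts and TPM per coding sequence, and the submitters' processing notes name kallisto, without version, index or build. The TPM were divided by effective length by the authors' tool and sum to 1000000 per library, per the file headers and values.

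Estimated counts were summed to genes through a table of RefSeq genes (assembly Amel_HAv3.1), which served for names and gene neighbours only, and rounded to whole numbers. All 23471 coding sequences matched. Library sizes were scaled by TMM (edgeR 4.0.16, R 4.3.3; factors 1.13, adult, and 0.885, larva). The comparison took genes with 10 or more counts over both libraries, with a prior of 0.5 counts in the log2 fold. Intervals are exact 95% Clopper-Pearson (folds, shares), Poisson (CPM) or conditional odds ratio intervals (ratios of folds). The code was tested on simulated data. Alternatives were plain totals, DESeq2 1.42.0 size factors, TMM without mitochondrial genes, TPM, other count filters, a prior of 2 and 1 coding sequence per gene. With 1 library per stage no p-value was computed.

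The members, lists and the 2-fold rule were chosen with earlier results of these data known. The named genes were the members, all other antioxidant genes of the list, the 2 nearest genes in level and the genomic neighbours. Python 3.11.15 (numpy 2.4.6, scipy 1.17.1, pandas 2.3.3, matplotlib 3.10.9) did the rest.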

Additional observations from a re-analysis of the deposited data

How the results depend on the processing

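Tpx-4 and Gtpx1 on the adult side and Cat and Sod1 on the larval side passed the 2-fold rule under each of the 8 alternatives, and no member changed sign. The other count filters could not alter these calls, since they only drop or add genes and every member has more than 100 counts. Nor could they alter the counts of genes past a rule, which needs 10 CPM. With plain totals the log2 folds were -1.58 for Cat, -1.27 for Sod1, -0.31 for Trxr-1 (also the median of the 5), 2.15 for Tpx-4 and 1.44 for Gtpx1. With the authors' TPM they were -1.39 for Cat, -1.17 for Sod1, -0.11 for Trxr-1 (again the median), 2.30 for Tpx-4 and 1.58 for Gtpx1. Taken from its most counted coding sequence alone, Cat stood at -1.81. The median over the other antioxidant genes was -0.70 with plain totals, -0.59 with TPM, -0.95 without a count filter, where GstS4 is added, and -0.69 from single coding sequences. The median over all genes compared was 0.37 with plain totals and 0.55 with TPM. Genes past the 2-fold rule came to 1421 on the adult and 575 on the larval side with plain totals, against 877 and 940 with TMM, and to 1894 and 472 with TPM, which apply no interval. Past the 4-fold rule TPM gave 560 on the adult and 142 on the larval side, against 276 and 240 with TMM. Tpx-4 lay above 4-fold with plain totals and with TPM, though not with TMM. Of 84 values recomputed, 59 stayed within their limits, which were the counting interval for a gene, 0.1 log2 units for a median and 1.5 times for a count of genes. The 59 include the counts of genes past a rule under the other count filters, which could not change. They also include all values with a prior of 2, which does not enter the intervals. With that prior the counts of genes past a rule were unchanged, and the member fold that moved most, Tpx-4, moved by 0.001 log2 units. The 4-fold counts with plain totals, 413 on the adult and 160 on the larval side, lay at the edge of that limit. No paired analysis was possible because each stage has 1 library, and no library can be left out. Depth limits the Trxr-1 sequence of 1614 bases most among the member sequences with counts, with 43 in the larval library.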

Other observations

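GstD1, a glutathione S-transferase gene, was the antioxidant gene whose division among coding sequences differed most in percentage points between the libraries. Its sequence of 723 bases held all 478 counts in adult and 62.2% (58.9 to 65.5) of 873 counts in larval hemocytes. The other 3 sequences, each of 654 bases, were listed at 0 in the adult library, which allows a share of up to 0.628% by the one-sided limit of 3 counts and 0.769% by the exact interval, and carried 110 counts each in the larval library, 12.6% (10.5 to 15.0) of the gene per sequence. The equal values are those of kallisto's estimate, and the sequences were not compared here. Per length the sequence of 723 bases alone stood at 41.9 TPM in adult and 40.6 TPM in larval hemocytes, against 41.9 and 69.7 TPM for the whole gene. MsrA was read almost only from its sequence of 717 bases, which carried 99.7% of counts in adult and 98.1% in larval hemocytes.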
